A study of Mus musculus with 9 samples.

Results

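The 9 genes described here encode transcription factors that set T cell, myeloid or erythroid fate: Gata2, Gata3, Tal1, Cebpa, Cebpe, Tbx21, Tcf7, Bcl11b and Zbtb16. They were chosen by name for these roles, and their DNA methylation was followed in a B cell line. All CpGs from 2 kb outside one end of a gene to 2 kb outside the other were taken if they had at least 1 read in each of the 9 libraries, which gave 1365 of 1096949 such CpGs in the series. Each gene was divided into its 2 ends (2 kb outside to 1 kb inside) and its body (more than 1 kb from both ends). Of 27 possible regions, 20 held at least 3 such CpGs and 10 reads in every library and were tested, among 26631 regions of protein-coding genes. The other 7 were the far ends of Gata2, Tal1, Tcf7 and Bcl11b, the lower end and body of Cebpe, and the lower end of Zbtb16, which held 0 such CpGs except for 2 at Bcl11b.

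The cells were Abl.1, immortalised mouse B cells grown from 1 clone (strain 129S1/SvImJ x CAST/EiJ F1, female), and the parental alleles were not separated. Cells were collected on day 2 in medium with 1% DMSO (2 libraries) or with 5-aza-2'-deoxycytidine at 0.2 µM (2 libraries), 2 µM (3 libraries) or 10 µM (2 libraries), and live cells were recovered by density centrifugation. Reduced representation bisulfite sequencing (RRBS), which reads cytosine methylation in the CpG-rich part of the genome, was used throughout. The labels name the replicates as library preparations and do not say that they came from separate cultures, so p-values measure the spread between libraries, which may be technical.

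CpG methylation is copied to the new DNA strand by the methyltransferase DNMT1 after replication. 5-aza-2'-deoxycytidine enters replicating DNA and traps that enzyme, so that methylation is lost as cells divide. Active gene starts in CpG-rich sequence are usually unmethylated, while gene bodies are usually methylated. GATA factors bind GATA motifs, Tal1 is a basic helix-loop-helix factor of blood stem cells and erythroid cells, and C/EBP factors direct the neutrophil and monocyte programme. Tcf7 and Bcl11b act in succession in T cell commitment, Tbx21 (T-bet) directs type 1 helper cells, and Zbtb16 (PLZF) directs innate-like T cells.

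Reads at CpGs numbered 8590883 to 16495535 per library, and the median depth of a CpG was 3 to 5 reads. The mean level over the 1096949 CpGs was 37.5 and 37.7% in the DMSO libraries. It was 16.5 and 16.7% with 0.2 µM, 22.7 to 23.2% with 2 µM, and 30.6 or 30.8% with 10 µM. RNA was not measured, so the labelled cell type was checked on methylation only. Of 8 B lineage genes with a tested start, 6 lay under 20% in DMSO, among them Ebf1 (0.303%) and Vpreb1 (0.133%), while Pax5 stood at 28.3% and Rag1 at 47.0%. Of the starts of other regulators described further on, 7 of 8 erythroid and 10 of 14 T cell starts also lay under 20%, and the median of all starts was 0.989%, so this check does not set the cell type apart.

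Sequences of 300 bases around RefSeq start sites (250 before, 50 after, build GRCm38.p6) were matched for 7 of the genes, in 10 promoters. They are shown for 3 promoters near 0%, for Gata2 as one of higher level, and for Bcl11b, whose surroundings were methylated. Each runs 5′ to 3′ on the strand of the gene, and capitals mark the CpGs read in every library.
Gata3: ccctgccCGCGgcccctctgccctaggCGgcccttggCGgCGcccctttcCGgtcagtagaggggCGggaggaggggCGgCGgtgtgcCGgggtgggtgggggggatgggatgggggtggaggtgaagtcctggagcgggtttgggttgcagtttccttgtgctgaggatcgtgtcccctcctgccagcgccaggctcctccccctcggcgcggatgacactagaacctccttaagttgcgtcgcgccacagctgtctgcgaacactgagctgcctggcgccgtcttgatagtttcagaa
Tcf7: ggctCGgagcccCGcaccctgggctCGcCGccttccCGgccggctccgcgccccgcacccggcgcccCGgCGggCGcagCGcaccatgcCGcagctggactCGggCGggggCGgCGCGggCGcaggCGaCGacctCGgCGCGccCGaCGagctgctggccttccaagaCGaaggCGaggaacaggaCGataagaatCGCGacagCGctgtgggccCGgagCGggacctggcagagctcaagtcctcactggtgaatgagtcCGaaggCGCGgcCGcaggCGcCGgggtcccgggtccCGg
Cebpa: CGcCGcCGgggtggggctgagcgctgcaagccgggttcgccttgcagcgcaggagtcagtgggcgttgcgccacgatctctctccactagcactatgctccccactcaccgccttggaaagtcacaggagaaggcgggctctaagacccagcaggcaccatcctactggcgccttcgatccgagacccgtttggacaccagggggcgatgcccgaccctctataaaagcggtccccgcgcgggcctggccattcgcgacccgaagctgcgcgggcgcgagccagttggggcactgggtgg
Gata2: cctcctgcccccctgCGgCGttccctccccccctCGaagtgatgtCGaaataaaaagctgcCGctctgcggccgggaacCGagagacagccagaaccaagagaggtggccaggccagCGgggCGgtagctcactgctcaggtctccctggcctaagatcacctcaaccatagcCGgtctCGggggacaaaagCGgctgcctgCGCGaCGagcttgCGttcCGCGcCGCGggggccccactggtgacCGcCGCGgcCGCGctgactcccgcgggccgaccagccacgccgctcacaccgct
Bcl11b: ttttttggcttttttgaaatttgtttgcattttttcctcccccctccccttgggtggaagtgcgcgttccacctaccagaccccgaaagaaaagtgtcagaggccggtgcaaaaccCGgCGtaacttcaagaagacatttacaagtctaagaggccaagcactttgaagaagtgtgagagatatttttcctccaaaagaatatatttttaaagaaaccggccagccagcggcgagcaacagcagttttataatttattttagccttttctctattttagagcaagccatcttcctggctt
The Gata3 promoter (chr2:9878551-9878850, minus strand) held 22 CpGs, of which 10 were read in every library, and its level was 0.84 and 0% in the DMSO libraries. A count of 0 in 152 reads allows up to 1.97%. The first Tcf7 promoter (chr11:52282965-52283264, minus strand) held 45 CpGs with 38 read in every library, at 1.32 and 0.693% in DMSO. The Cebpa promoter (chr7:35119043-35119342, plus strand) had only 3 CpGs read in every library, and no methylated read in any of the 9 libraries. At 26 to 58 reads per library, this allows up to between 5.17% and 11.5%, counting error only. The first Gata2 promoter (chr6:88193641-88193940, plus strand) had 24 of 32 CpGs read in every library and stood at 8.97 and 14.4% in DMSO. The Bcl11b promoter (chr12:108003365-108003664, minus strand) held 9 CpGs, fewer than the others shown, against a median of 7 over 32851 promoters. Only 2 of them were read in every library, by 2 to 15 reads, so its level is not read from these data. Both Tal1 promoters and the Tbx21 promoter had 0 CpGs read in every library. The letters CCGG, which read the same on both strands, occurred 3 times in the Bcl11b promoter, 8 times in the first Tcf7 promoter and in neither the first Tal1 promoter nor the Tbx21 promoter. They occurred in 52.8% of all promoters of this length.

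In the DMSO libraries the 9 genes fell into different patterns. Among the CpGs with at least 10 pooled DMSO reads, 47.6% of the 912 in these genes lay under 20% and 19.0% at 80% or more, against 69.9% and 16.2% of 741416 CpGs in the series. Bcl11b stood at one extreme, with 81 of its 119 CpGs at 80% or more and 1 under 20%. Tcf7 stood at the other, with 95 of 113 under 20%. Zbtb16 had 58 of its 81 CpGs in between. Over regions, the median DMSO level of the 7 gene starts was 18.8%, against 0.989% over 10181 starts in the series. These 7 count the upstream end of the Gata3 model, while its start site, near 0%, lies in the body region. At Tal1 and Tbx21 no CpG of the promoter sequences was read in every library, and at Bcl11b only 2. The medians therefore compare regions around gene starts, not the start sites themselves. The 8 bodies had a median of 54.0%, against 71.4% over 10556 bodies.

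**Figure D1:**
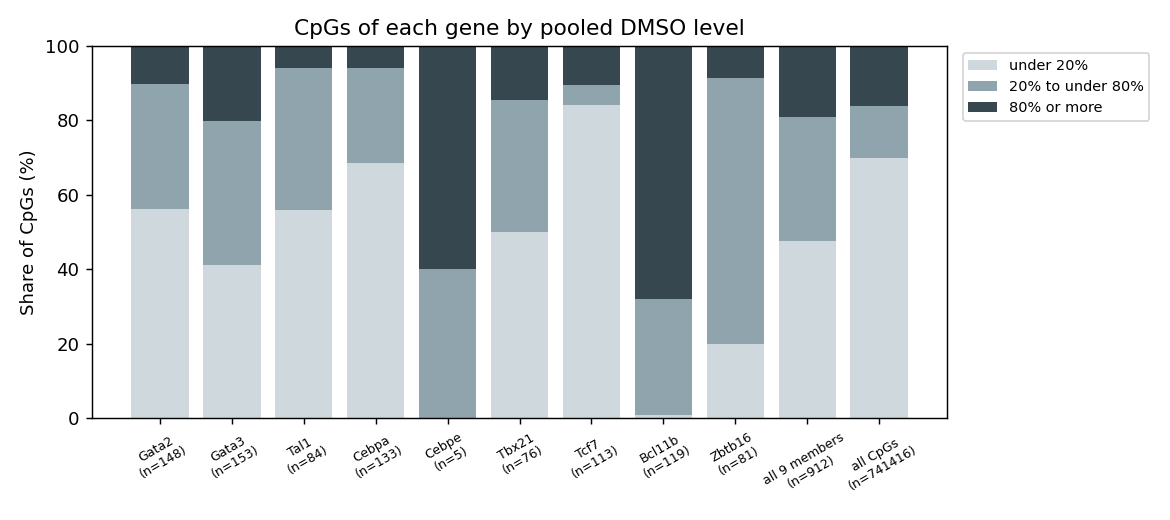
Share of CpGs (%, vertical axis) in 3 classes of pooled DMSO level for each gene, for all 9 genes and for all CpGs, with the number of CpGs below each bar. Bcl11b has 68.1% of its CpGs at 80% or more, and Tcf7 has 84.1% under 20%.

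At 0.2 µM, methylation fell in 16 of the 20 regions, while 50.6% of all regions of the series fell. The median change was -24.2 percentage points over the 20 regions and -14.0 points over all. At 2 µM, 9 of 20 fell (39.3% of all), with medians of -13.4 and -6.86 points. At 10 µM, 2 of 20 fell (9.33% of all), both in Bcl11b, with medians of -7.02 and -0.974 points. In the test as planned, none rose above DMSO at any dose (0.0451, 0.0826 and 0.101% of all regions did). In this quasi-binomial test with Benjamini-Hochberg adjustment over all regions, 0, 0 and 1 of the 20 were higher at an unadjusted p under 0.05, and limma on unweighted levels called 0 at each dose. Without the scaling of reads, 2 of the 20 regions were called higher at 10 µM, the Tal1 body and the Tcf7 start, and 4 lower. The limma alternative, which gives every CpG the same weight and not every read, called 19, 14 and 4 regions lower at the 3 doses. The shares of all regions called by these alternatives are not given here, so their counts are not set beside the series. The share called differs with the kind of region, since 77.1% of all bodies but 23.7% of all starts fell at 0.2 µM. Of the 8 bodies described here 7 fell at that dose, and 5 of the 7 starts, which count the upstream end of the Gata3 model.

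The doses were then compared with each other. From 0.2 to 2 µM, 3 of 20 regions rose, the Gata2 body and the start and body of Tbx21 (6.19% of all regions rose). From 2 to 10 µM, 3 rose as well, the bodies of Gata2 and Bcl11b and the far end of Gata3 (4.15% of all). None fell in either comparison (0.27 and 0.00376% of all), 0 did at an unadjusted p under 0.05, and limma called 0. Without any 1 of the 9 libraries, the 10 µM count against DMSO was 0 or 1 and the count from 2 to 10 µM was 0. The count from 0.2 to 2 µM was 0 without any 1 of the DMSO, 0.2 µM or 2 µM libraries and 3 without either 10 µM library. With the dispersion prior taken from regions at 10 to 90% only, the counts were 4 at 10 µM, 8 from 0.2 to 2 µM and 6 from 2 to 10 µM. The shares of all regions called with that prior are not given here.

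**Figure D2:**
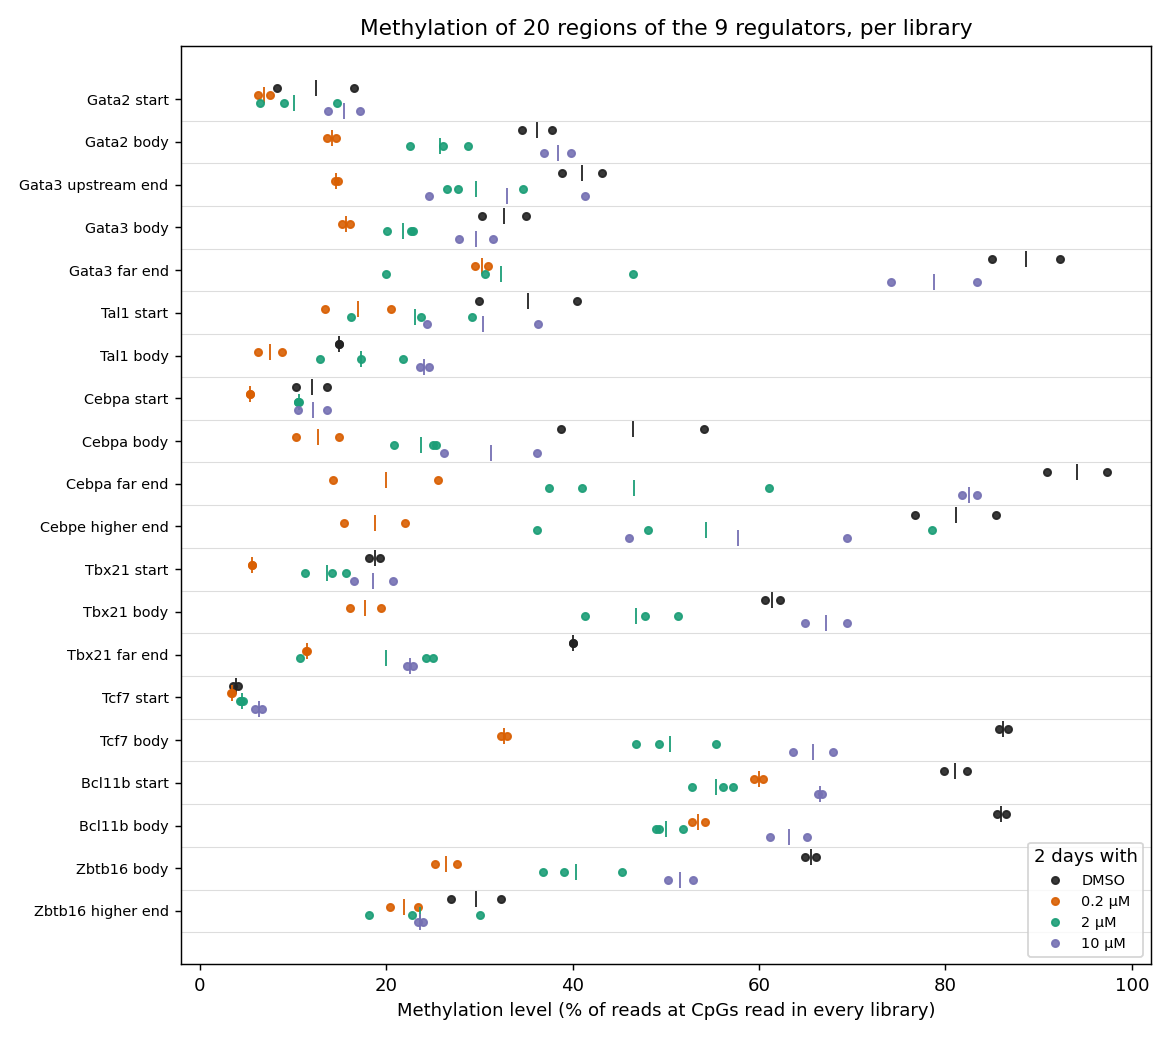
Methylation level (% of reads, horizontal axis) of each tested region, with 1 point per library and a bar at the group mean. The 0.2 µM libraries lie furthest left in most regions, while at the start and body of Bcl11b the 2 µM libraries lie left of them.

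The T cell regulators are described first. Bcl11b, a zinc finger factor needed for T cell commitment (chr12:107910403-108004145), was methylated in every bin of 1 kb that was tested, at 46.9% or more in DMSO. Its promoter and far end each held only 2 CpGs read in every library, too few to judge. Its start region, with 71 CpGs, stood at 79.8 and 82.3% in DMSO, 60.4 and 59.5% at 0.2 µM, 56.1, 57.2 and 52.8% at 2 µM and, in the 10 µM libraries, 66.3 and 66.8%. Every treated library lay below both DMSO libraries. Each SE given here and below combines the model errors of the first library of each group, not of the group means. The start fell by 21.1 points at 0.2 µM (SE 5.56, adjusted p = 0.00169), by 25.7 at 2 µM (SE 5.51, adjusted p = 0.000823) and by 14.5 at 10 µM (SE 5.30, adjusted p = 0.0481). The last call was lost without any 1 of the 9 libraries, with adjusted p between 0.0586 and 0.221, and with at least 5 reads per CpG (-20.4 points, adjusted p = 0.0874).

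The Bcl11b body, with 228 CpGs, stood at 86.5 and 85.5% in DMSO, 52.8 and 54.2% at 0.2 µM, 49.3, 51.8 and 48.9% at 2 µM and, in the 10 µM libraries, 65.1 and 61.2%. It fell by 32.5 points at 0.2 µM (SE 3.91, adjusted p = 6.11e-05), by 36.0 at 2 µM (SE 3.90, adjusted p = 0.000167) and by 22.8 at 10 µM (SE 3.81, adjusted p = 0.0136). The 10 µM call was lost without DMSO replicate 1, DMSO replicate 2 or 10 µM replicate 1 (adjusted p = 0.141, 0.125 and 0.0557). In both regions the 2 µM libraries lay below the 0.2 µM libraries with no overlap, but the differences of -4.59 points at the start (SE 6.06) and -3.47 in the body (SE 4.52) did not pass the test (adjusted p = 0.527 and 0.521). In the body, 62.2% of the DMSO level was kept at 0.2 µM. The median was 35.6% over the 1590 bodies with a DMSO level of 80 to 90%, and 91.8% of those bodies kept less. At 2 µM the body kept 58.1%, near the median of 56.1% of that band. Of the 21 bins of 1 kb that touch Bcl11b, 14 had a lower mean at 2 µM than at 0.2 µM, against 22.8% of 58191 bins in the series and 20.6% of those at 80% or more in DMSO. At the start this order is common, since 51.3% of the 448 starts with a DMSO level of 80 to 90% had it. These comparisons with bands and bins were chosen after the values were seen and were not tested.

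**Figure D3:**
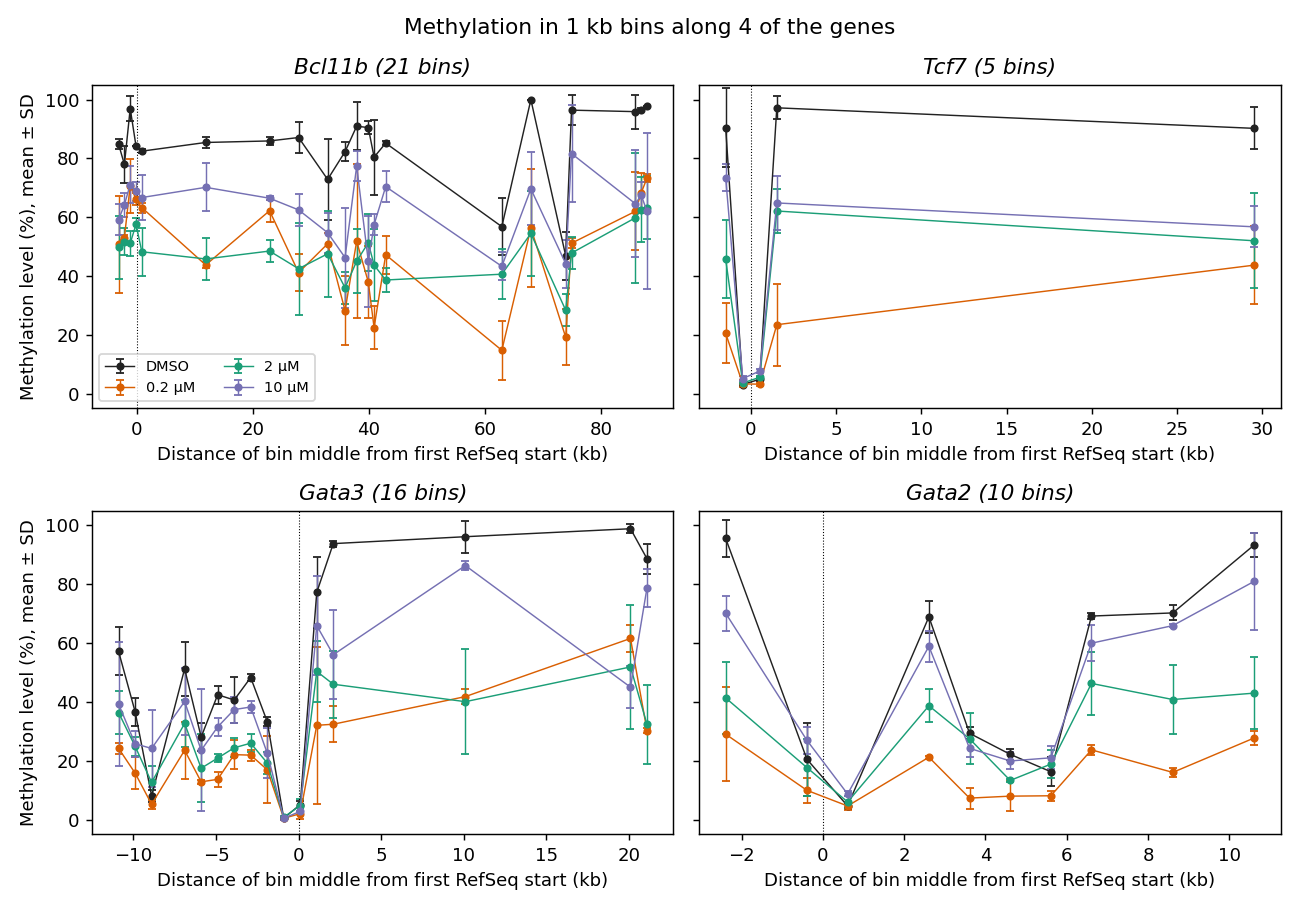
Methylation level (%, mean ± SD over 2 or 3 libraries) in 1 kb bins against the distance of the bin's middle from the first RefSeq start (kb), for 4 genes. The 21 tested bins of Bcl11b stay at 46.9% or more in DMSO, while Tcf7, Gata3 and Gata2 drop near the start. These bins cover only part of Bcl11b, and its promoter held only 2 CpGs read in every library.

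Tcf7 (chr11:52246527-52283383), a high mobility group factor downstream of Notch in early T cells, had an unmethylated start and a methylated body. The start, with 108 CpGs, stood at 3.57 and 4.10% in DMSO, 3.35 and 3.51% at 0.2 µM, 4.34 to 4.68% at 2 µM and, in the 10 µM libraries, 5.91 and 6.72%. No difference from DMSO passed the test, and the change at 0.2 µM was -0.41 points (SE 1.68, adjusted p = 0.88). The change of 2.48 points at 10 µM was called without the scaling of reads (adjusted p = 0.0199). With limma on unweighted CpG levels, however, the start stood at 9.03% in DMSO and fell by 5.74 points at 0.2 µM (adjusted p = 0.000159). At 2 µM that alternative gave -3.59 points (adjusted p = 0.00308), against a change of 0.64 points from reads. The body, with 21 CpGs, stood at 86.7 and 85.7% in DMSO, 32.3 and 32.9% at 0.2 µM, 49.2, 46.8 and 55.4% at 2 µM and, in the 10 µM libraries, 63.7 and 68.0%. The groups did not overlap. The body fell by 53.6 points at 0.2 µM (SE 7.36, adjusted p = 0.000149) and by 35.7 at 2 µM (SE 7.67, adjusted p = 0.00104). The change at 10 µM was -20.4 points (SE 7.55, adjusted p = 0.0524), and -11.5 points with limma on unweighted levels (adjusted p = 0.0448). The 2 bins beside the start, centred at -486 and 514 bp from it, stood at 3.14 and 4.95% in DMSO. The next bins on either side stood at 90.5 and 97.2%. At DMSO levels of 86.2 and 86.0%, the Tcf7 and Bcl11b bodies kept 37.9 and 62.2% at 0.2 µM, and 58.6 and 58.1% at 2 µM.

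Gata3 (chr2:9857078-9887953), which directs T cell development and type 2 helper cells, has a gene model that reaches beyond the start site shown above, so that this start lies inside its body region. Around it, the bins centred at -900 and 100 bp from the start stood at 0.456 and 5.07% in DMSO, while the bins centred 1100 and 2100 bp after it stood at 77.2 and 93.8%. The body, with 206 CpGs, stood at 30.3 and 35.0% in DMSO, 16.2 and 15.3% at 0.2 µM, 20.1, 22.8 and 22.6% at 2 µM and, in the 10 µM libraries, 27.8 and 31.4%. It fell by 16.9 points at 0.2 µM (SE 3.74, adjusted p = 0.00062) and by 10.8 at 2 µM (SE 3.94, adjusted p = 0.00783), the latter not without DMSO replicate 2 (-8.40 points, adjusted p = 0.0826). With limma on unweighted levels the body fell by 25.6, 19.2 and 10.1 points at the 3 doses, the last with adjusted p = 0.00598. The upstream end of the model, with 16 CpGs, stood at 43.2 and 38.9% in DMSO and 14.8 and 14.5% at 0.2 µM, where it fell by 26.4 points (SE 9.59, adjusted p = 0.0097). That call was lost without DMSO replicate 1 (-24.2 points, adjusted p = 0.0627), and taking the end from 1 kb instead of 2 kb outside gave a change of 0.616 points (adjusted p = 1). The far end, with only 5 CpGs, stood at 85 and 92.3% in DMSO, 29.5 and 31.0% at 0.2 µM, 30.6, 20 and 46.4% at 2 µM and, in the 10 µM libraries, 74.2 and 83.3%. It fell by 58.4 points at 0.2 µM (adjusted p = 0.00311) and by 56.3 at 2 µM (adjusted p = 0.00362). From 2 to 10 µM it rose by 46.4 points (adjusted p = 0.0411), a call lost in 10 of 16 alternatives of the processing.

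Tbx21 (chr11:97098007-97115331) had a start of 56 CpGs at 18.2 and 19.4% in DMSO, 5.62 and 5.58% at 0.2 µM, 14.1, 11.3 and 15.6% at 2 µM and, in the 10 µM libraries, 16.5 and 20.7%. It fell by 13.2 points at 0.2 µM (SE 3.01, adjusted p = 0.000711) and the 10 µM libraries lay on either side of the DMSO libraries. The body, with 31 CpGs, stood at 62.2 and 60.7% in DMSO, 16.1 and 19.5% at 0.2 µM, 51.3, 47.8 and 41.3% at 2 µM and, in the 10 µM libraries, 64.9 and 69.4%. It fell by 43.7 points at 0.2 µM (SE 7.23, adjusted p = 0.000223). The change at 2 µM was -14.6 points and did not pass the test, but was -23.4 points with limma on unweighted levels (adjusted p = 0.00418). From 0.2 to 2 µM it rose by 29.0 points (SE 7.27, adjusted p = 0.0321), a call lost in 9 of 18 alternatives of the processing. Both 10 µM libraries lay above both DMSO libraries, but the difference of 5.75 points did not pass the test (SE 8.0, adjusted p = 0.742) and was -1.88 points with limma (adjusted p = 0.874). The far end, with 3 CpGs, fell from 40% in both DMSO libraries to 11.4 and 11.5% (adjusted p = 0.0295), a call lost without either DMSO or either 0.2 µM library (adjusted p from 0.0922 to 0.0994).

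Zbtb16 (chr9:48651797-48836225) is given by its lower and higher ends, since its strand was not taken from the reference used here. The body, with 84 CpGs, stood at 64.9 and 66.1% in DMSO, 27.6 and 25.2% at 0.2 µM, 39.1, 36.8 and 45.2% at 2 µM and, in the 10 µM libraries, 50.2 and 52.9%, with no overlap between groups. It fell by 39.1 points at 0.2 µM (SE 5.82, adjusted p = 0.000131) and by 25.2 at 2 µM (SE 6.24, adjusted p = 0.00135), and the change at 10 µM was -14.0 points (SE 6.24, adjusted p = 0.082). With at least 5 reads per CpG the change at 2 µM was -21.5 points and was not called (adjusted p = 0.0638), and that at 0.2 µM was -24.5 points (adjusted p = 0.0378). The higher end, with 56 CpGs, stood at 27.0 and 32.3% in DMSO and 20.4 and 23.4% at 0.2 µM. Its change of -7.71 points did not pass the test (SE 4.83, adjusted p = 0.0889). At 0.2 µM it kept 74.0% of the DMSO level, against a median of 43.7% over 71 higher ends with a DMSO level of 20 to 30%. Of those ends 87.3% kept less. At 2 µM it kept 79.9%, against a median of 71.8%, and at 10 µM 79.8%, against 93.1%. The comparison with this band was not tested.

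**Figure D4:**
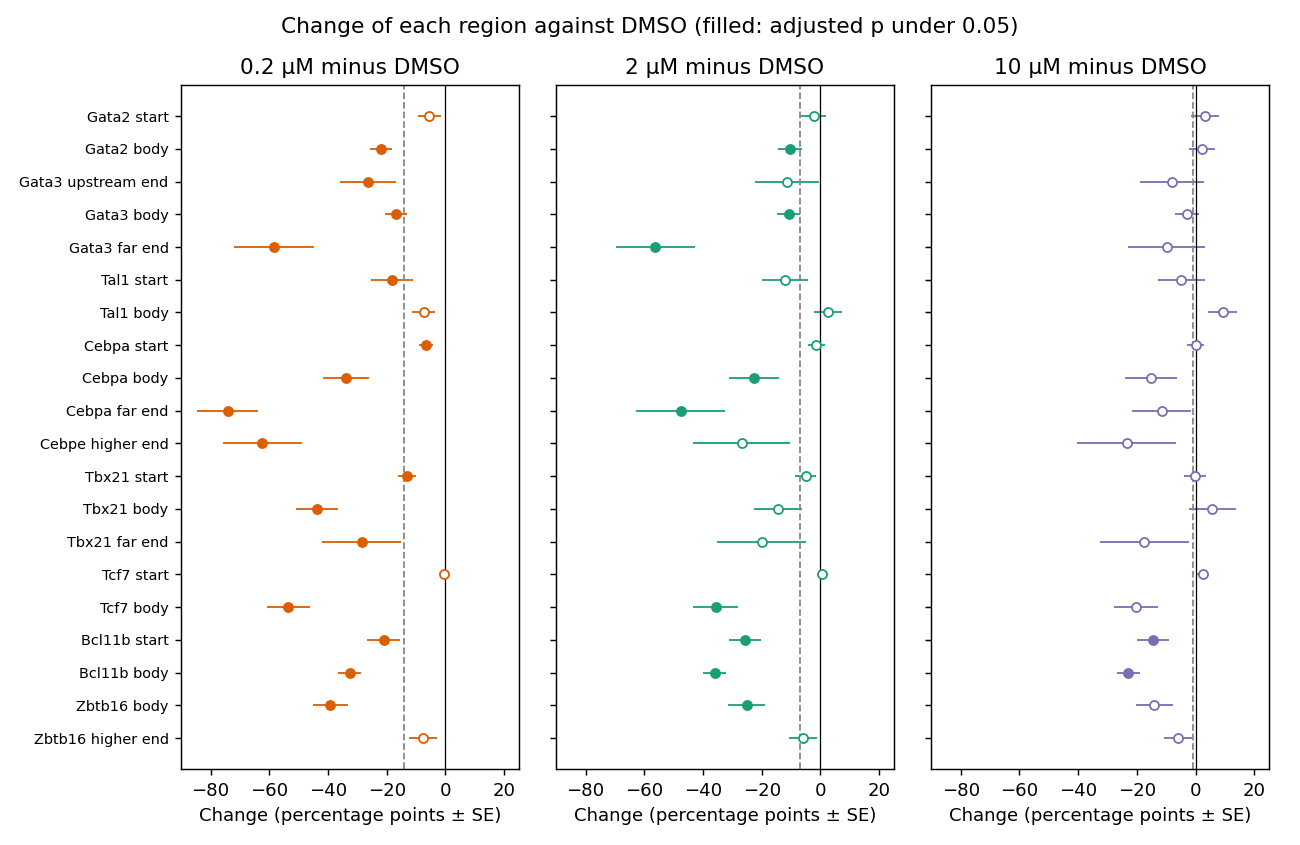
Change against DMSO (percentage points, horizontal axis) of each region at 0.2, 2 and 10 µM, with bars of ± SE. The SE combines the model errors of the first library of each group, not of the group means. Filled points have an adjusted p under 0.05, and the dashed line is the median change of all 26631 regions. Filled points number 16, 9 and 2.

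Among the erythroid and stem cell regulators, Gata2 (chr6:88193891-88207032), a factor of blood stem cells and mast cells, had a low start and a body of intermediate level. The start, with 69 CpGs, stood at 8.27 and 16.6% in DMSO and 6.23 and 7.56% at 0.2 µM, a change of -5.53 points that did not pass the test (SE 3.88, adjusted p = 0.171). With limma on unweighted levels it fell by 10.2 points (adjusted p = 0.00645). The body, with 141 CpGs, stood at 37.8 and 34.6% in DMSO, 14.6 and 13.6% at 0.2 µM, 22.6, 28.8 and 26.1% at 2 µM and, in the 10 µM libraries, 39.9 and 36.9%. It fell by 22.1 points at 0.2 µM (SE 3.80, adjusted p = 0.000193) and by 10.4 at 2 µM (SE 4.2, adjusted p = 0.0122), the latter not without DMSO replicate 1 (-8.77 points, adjusted p = 0.104). It rose by 11.7 points from 0.2 to 2 µM (adjusted p = 0.0331) and by 12.6 from 2 to 10 µM (adjusted p = 0.0435). These 2 calls were lost in 9 and 11 of 18 alternatives of the processing. The 10 µM libraries overlapped the DMSO libraries. The second Gata2 promoter (chr6:88198414-88198713) lies inside the body region and stood at 8.81 and 8.42% in DMSO. The 1 kb bins of the gene ran from 4.61 to 95.6% in DMSO, so the body level mixes low and high sequence.

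Tal1 (chr4:115056426-115071755) had a start of 53 CpGs at 29.9 and 40.5% in DMSO, 13.4 and 20.6% at 0.2 µM, 16.3, 23.7 and 29.2% at 2 µM and, in the 10 µM libraries, 24.4 and 36.3%. It fell by 18.2 points at 0.2 µM (SE 7.23, adjusted p = 0.0152). This call was lost without DMSO replicate 2 or without 0.2 µM replicate 1 (-13.0 points, adjusted p = 0.136, and -14.7 points, adjusted p = 0.119), and with at least 5 reads per CpG (-11.0 points, adjusted p = 0.0866). The change at 2 µM was -12.2 points and did not pass the test, but -15.5 points with limma on unweighted levels did (adjusted p = 0.0384). The body, also with 53 CpGs, stood at 14.9% in both DMSO libraries, 6.30 and 8.78% at 0.2 µM, 21.8, 17.3 and 12.9% at 2 µM and, in the 10 µM libraries, 24.5 and 23.6%. Its changes of -7.37 points at 0.2 µM (SE 3.93, adjusted p = 0.0533) and 9.18 points at 10 µM (SE 5.01, adjusted p = 0.145) did not pass the test. With limma on unweighted levels the body fell by 12.7 points at 0.2 µM (adjusted p = 0.00525), and the change at 10 µM was 3.09 points (adjusted p = 0.629). Without the scaling of reads, the rise of 9.18 points at 10 µM was called (adjusted p = 0.0421). With at least 5 reads per CpG, the change at that dose was -3.40 points and was not called.

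Of the myeloid regulators, Cebpa (chr7:35119293-35121928) differed in level along its length in DMSO. The start, with 127 CpGs, stood at 10.3 and 13.7% in DMSO, 5.40 and 5.36% at 0.2 µM, 10.5 to 10.7% at 2 µM and, in the 10 µM libraries, 10.6 and 13.6%. It fell by 6.63 points at 0.2 µM (SE 2.51, adjusted p = 0.0103), but not without DMSO replicate 2 (-4.95 points, adjusted p = 0.083). With limma on unweighted levels it fell by 10.7 points at 0.2 µM and by 5.87 at 2 µM (adjusted p = 0.000676 for the latter), where the change from reads was -1.42 points and not called. The body, with 17 CpGs, stood at 54.1 and 38.8% in DMSO, 10.3 and 14.9% at 0.2 µM, 25, 25.4 and 20.8% at 2 µM and, in the 10 µM libraries, 26.2 and 36.2%. It fell by 33.8 points at 0.2 µM (SE 7.77, adjusted p = 0.000868) and by 22.7 at 2 µM (SE 8.46, adjusted p = 0.00805). The latter call was lost in 3 of 18 alternatives of the processing. Among them were the fit without DMSO replicate 1 (-15.1 points) and that with at least 5 reads per CpG (-24.4 points, adjusted p = 0.0867). The far end had only 3 CpGs, read 18 to 43 times, and stood at 97.3 and 90.9% in DMSO, 25.6 and 14.3% at 0.2 µM, 61.1, 37.5 and 41.0% at 2 µM and, in the 10 µM libraries, 83.3 and 81.8%. It fell by 74.2 points at 0.2 µM (adjusted p = 0.000404) and by 47.6 at 2 µM (adjusted p = 0.00307, and 0.051 without DMSO replicate 1). The far ends most like it over the 9 libraries, among 2586, were those of Ftsj3, Fbxl15, Hmg20b, Agap3 and Stimate, with root mean square differences of 4.62 to 6.60 points.

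Cebpe (chr14:54710363-54712174), which acts late in neutrophil maturation, was represented by 15 CpGs at its higher end, read 49 to 116 times. The level was 85.5 and 76.8% in DMSO, 15.5 and 22.0% at 0.2 µM, 78.6, 36.1 and 48.1% at 2 µM and, in the 10 µM libraries, 69.4 and 46.0%. It fell by 62.4 points at 0.2 µM (SE 13.4, adjusted p = 0.0015). One 2 µM library lay within the range of the DMSO libraries and the others below it, and the change of -26.8 points there did not pass the test (SE 16.5, adjusted p = 0.0677), while limma on unweighted levels called -23.9 points (adjusted p = 0.0434).

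The bins of 1 kb show where along the genes the loss lay. Of the 76 bins that touch a gene of the 9, 55 fell at 0.2 µM (54.5% of all bins) and 38 at 2 µM (40.6% of all). None rose at these doses (0.0172 and 0.0275% of all), 0 did at an unadjusted p under 0.05, and limma called 0. At 10 µM, and between doses, this test called 0 of 76, but it called 0% of the 58191 bins of the series there too. On simulated data the test recovered none of the smaller and few of the larger changes in bins. Only a small part of the bins was changed there, while 54.5% of all bins fell at 0.2 µM in these data. The simulation therefore does not measure how well the test detects changes here, and the zero counts say little. Without the scaling of reads, 12 bins were higher and 1 lower from 0.2 to 2 µM. At an unadjusted p under 0.05, 19 of the 76 bins were lower at 10 µM, and limma called 11. The shares of all bins under these settings are not given here. Without DMSO replicate 1 or 2, 23 or 30 bins fell at 0.2 µM and 0 at 2 µM, and without 0.2 µM replicate 1 or 2, 36 or 33 fell at 0.2 µM. Bcl11b had 19 of its 21 bins lower at 0.2 µM and Gata3 8 of 16. In the 17 Bcl11b bins at 80% or more in DMSO, the mean level ran from 22.5 to 73.4% at 0.2 µM and from 36.0 to 63.3% at 2 µM. The highest at 0.2 µM were the bins centred at 87914 and -1086 bp from the start, at 73.4 and 70.8%.

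Lists of other genes of the same pathways were read beside the 9. In all regions of the series, 50.6, 39.3 and 9.33% fell at the 3 doses. Of 42 tested regions of 20 other T cell regulators, 21 fell at 0.2 µM, 14 at 2 µM and 4 at 10 µM. Of 24 regions of 15 other myeloid regulators, of 16 listed, 11, 7 and 1 fell, and of 23 regions of 13 other erythroid regulators, of 15 listed, 10, 6 and 0. Among 23 regions of 12 family relatives of the 9 genes, 14, 11 and 5 fell. Their median DMSO levels were 20.8, 14.4, 7.72 and 32.5%, against 40.5% for the 20 regions of the 9 genes. The body of Rora, a nuclear receptor of type 2 innate lymphoid cells, went from a mean of 49.0% in DMSO to 22.9, 35.9 and 43.0% at the rising doses. That of Zfpm1, a GATA partner, went from 66.1% to 38.9, 46.6 and 60.2%. In all 4 lists, 1 region rose above DMSO, the body of Myb at 2 µM, from 1.73 to 6.53% (adjusted p = 0.0314). Of the marker genes of other lineages, the bodies of Zap70 (T cells) and Mpo (myeloid cells) stood at 91.8 and 90.9% in DMSO. They fell to 37.3 and 31.4% at 0.2 µM (adjusted p = 9.93e-05 and 0.000202). The Csf1r body (myeloid) stood lower in DMSO, at 39.5%, and the Klf1 start (erythroid) at 13.0%. Bodies of the B lineage markers Ikzf3, Tcf3 and Ebf1 stood at 79.9, 73.8 and 51.7% and fell to 38.0, 26.0 and 20.6%. All of these marker genes were taken from regions lower at 0.2 µM, so their loss was set by that rule. Over all tested regions of the marker lists, 6 of 23 fell at 0.2 µM for the B lineage. For T cells 4 of 7 fell, for myeloid cells 3 of 3 and for erythroid cells 2 of 4. The median DMSO levels were 2.88, 76.7, 85.6 and 14.5%. The B lineage list held 8 starts, the T cell and myeloid lists 0 and the erythroid list 1. Differences between these lists were not tested.

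Other genes overlap these windows. They are Skp1 at Tcf7, Gm38708 at Gata2, 4930412O13Rik and 9230102O04Rik at Gata3, Gm52674 and Gm33786 at Tal1, and Gm32280 at Zbtb16, so a CpG can belong to both.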

How the data were processed

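RRBS was measured in 9 libraries of 4 groups. The authors deposited 1 table per library with the methylated over all read counts at each CpG and a score, per the files themselves; the deposited score equals 1000 times the methylated share, rounded down, and served only as a check. The build is mm10 per the submitters' processing notes; aligner and caller: not given in the sources used here. PCR copies were not separated, so intervals cover counting error only. RefSeq tables of GRCm38.p6 gave genes and promoters, and 181463 of 181463 CpGs inside promoter sequences fell on CG.

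Reads were summed per region or 1 kb bin. A quasi-binomial model with 1 level per group was fitted to all 9 libraries, with reads scaled to their effective number in 5 coverage classes. Dispersion was moderated across all features with limma 3.58.1 (R 4.3.3) and floored at 1. P-values were adjusted by the Benjamini-Hochberg method over 26631 regions or 58191 bins, with a threshold of 0.05. A change is the difference of group means in percentage points. The SE printed beside it combines the model errors of the first library of each group, so it is not the error of that difference. The test was tested on simulated data, where it recovered none of the smaller and few of the larger changes in bins. Only a small part of the features was changed there, unlike in these data. A prior from features at 10 to 90% recovered more, but it and a second version were tried after the counts of the planned test had been seen, so they are kept as added alternatives. The 9 genes and all lists were chosen with earlier results of these data known. All 9 genes are named. From each list, the rule took the 3 genes with the most reads among regions lower at 0.2 µM and any region above DMSO, of which some are printed. Alternatives are listed in the closing section. Replicate numbers are library preparations per the labels and were not used to pair samples in the main test.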

Additional observations from a re-analysis of the deposited data

How the results depend on the processing

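Over the alternatives, the calls of single regions kept direction and threshold in 488 checks, kept direction but not the threshold in 91, and reversed in 1 (the upstream end of Gata3 at 0.2 µM, 0.6155 points with gene ends from 1 kb outside). Of the differences not called, 1103 stayed so (38 with a change of sign), 81 passed the threshold, and 1 did so with the opposite sign (the Tcf7 start at 2 µM, -3.5864 points by limma). Of the 81, 23 came from limma on unweighted levels and 23 from leaving out the scaling of reads. The cause was not tested. The counts that follow are of the 9 genes alone, and the shares of all regions or bins under each alternative are not given here. Without scaling, 2 regions were higher than DMSO at 10 µM, and 1 bin was lower from 0.2 to 2 µM. Regions lower at 0.2 µM numbered 19 by limma. Regions lower at 2 µM numbered 5 with at least 5 reads per CpG and 14 by limma on unweighted levels. Regions lower at 10 µM numbered 1 with at least 5 reads per CpG, 4 by limma, 4 without scaling of reads and 4 with the prior from features at 10 to 90%. Regions higher from 0.2 to 2 µM numbered 0 with at least 5 reads per CpG, 5 with at least 20 reads, 9 by limma, 12 without scaling, 8 with the prior from features at 10 to 90% and 8 with dispersion floored first. Regions higher from 2 to 10 µM numbered 0, 11, 9, 6 and 5 with 5 reads per CpG, limma, no scaling, the prior from 10 to 90% and the floor. Bins lower at 0.2 µM numbered 19 of 39 with 5 reads per CpG and 34 of 52 with 20 reads, and at 2 µM 15 and 25. Bins lower at 10 µM numbered 11 by limma, 6 without scaling, 13 with the prior from 10 to 90% and 9 with the floor. Bins higher from 0.2 to 2 µM numbered 2, 12, 6 and 3 in that order, and from 2 to 10 µM 6, 7, 6 and 5. Both dispersion alternatives were added after seeing the data; on simulated data the first recovered more of the changes than the planned test, which is the more cautious.

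Leaving out 1 library gave 13 to 16 regions lower at 0.2 µM, 6 to 10 at 2 µM and 0 to 1 at 10 µM, 0 to 3 higher from 0.2 to 2 µM and 0 from 2 to 10 µM. It gave 23 to 55 bins lower at 0.2 µM and 0 to 37 at 2 µM. With a replicate block (replicates 1 and 2 only), 15, 9 and 0 regions were lower at the 3 doses, 0 were higher between doses, and 42, 0 and 0 bins were lower. Same-numbered libraries did not deviate together (r between -0.0177 and 0.0145 over 11436 regions). This shows no shared shift in level, but cannot show whether libraries of the same number were prepared together. The median depth of a CpG, 3 to 5 reads, limits the precision of regions with few CpGs.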
